A study of Musa acuminata AAA Group with 12 samples.

Results

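Among the genes of banana pulp, 324 had an FPKM below 1 in every day 7 library and of at least 1 in every day 1 library. The 150 described here are a part of them. FPKM is the number of sequenced fragments of a gene relative to its length and to all mapped fragments of the library. The coated and the control fruit of day 1 were required to have mean FPKM within 1.5-fold of each other, which 185 genes met, and the 150 with the highest value in their lowest day 1 library were kept. They were taken from tables of 35273 gene rows, of which 19745 genes passed a filter on low values. All 150 passed that filter, and they had to, since the rule asked for at least 1 FPKM in 6 libraries and the filter for 3. The level of these genes at both days and the similarity of coated and control fruit at day 1 are therefore what the genes were chosen by. They are described here without a test.

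The samples were fruit pulp of Cavendish banana (Musa acuminata, AAA Group), from fingers that had all been treated with ethylene. Fruit without a coating was sampled on day 1 (1K) and day 7 (7K), and fruit dipped in 1.25% chitosan, a polysaccharide that forms an edible film, on day 1 (1A) and day 7 (7A). Each of the 4 groups had 3 biological replicates, named a, b and c. Pulp is a mixture of cells, so fewer cells of a type and less RNA per cell cannot be told apart in these values.

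Banana is a climacteric fruit, in which ethylene sets off a burst of respiration and further ethylene production. During ripening the pulp turns starch into sugars, loosens its cell walls and forms its aroma, while many transcripts of the green fruit decline. The tables give gene IDs of the DH Pahang annotation without product names, and 0 of them were found in the RefSeq gene table of a Cavendish assembly. Functions, pathway lists, tissue markers and sequences are therefore not given. The genes are described by their levels, positions and behaviour in single libraries.

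The fragments implied by the confidence bounds summed to between 11078141 and 16553611 in 11 libraries and to 6136363 in 7A_c. Over the 150 genes the median FPKM was 3.47 in 1K_a, 3.73 in 1K_b and 3.03 in 1K_c, and 3.37 in 1A_a, 2.88 in 1A_b and 3.84 in 1A_c. At day 7 it was 0.355 in 7K_a, 0.396 in 7K_b and 0.400 in 7K_c, and 0.325 in 7A_a, 0.358 in 7A_b and 0.190 in 7A_c. The library with the fewest implied fragments thus had the lowest median, and the part of fragment number in that value was not tested. Like 7K_c, it was also among the day 7 libraries with the lower GC share of reads, and the part of that share was not tested either. The study's read statistics do not place 7A_c below the other libraries in sequenced reads, so its low number is one of fragments behind the deposited FPKM and not of reads sequenced. The share of its reads that mapped, as the study gives it, lay within the range of the other libraries. It was below that of every library with a higher GC share of reads. Why fewer fragments stand behind its FPKM is not given in the sources used here. Of the 150 genes 37 were listed at 0 in 7A_c, against 6 to 17 in the other day 7 libraries.

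**Figure D1:**
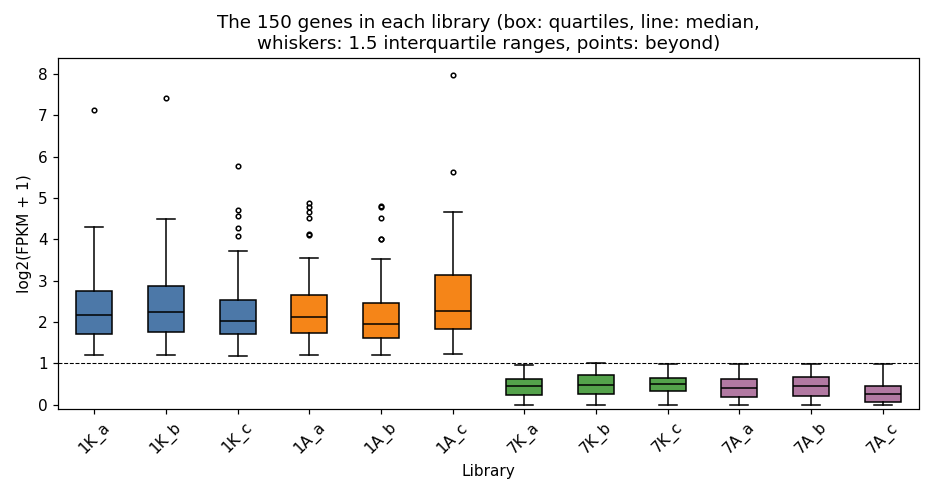
Box plots of the 150 genes in each of the 12 libraries (horizontal axis) on the scale log2(FPKM + 1) (vertical axis), where the dashed line is an FPKM of 1. Boxes are quartiles with the median as a line, and 7A_c has the lowest median, at an FPKM of 0.190.

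Most of the genes were expressed at a modest level before they fell. The mean FPKM over the day 1 libraries was under 5 for 106 genes, between 5 and 10 for 29 and at least 10 for 15, with a median of 3.59 and a range from 1.59 to 111. For comparison, the median over all 19745 tested genes was 5.61, and the median gene of the set stood at the 40.0th percentile of the tested genes at day 1. The mean over the day 7 libraries had a median of 0.343 and reached at most 0.881. Across the 150 genes, which are not independent replicates and come from the same libraries, the day 1 mean and the day 7 mean had a Spearman rho of -0.108. The rule bounded both means, so nothing is read from this value.

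The description as switched off fits the genes unequally. The day 7 mean was under 5% of the day 1 mean for 48 genes and under 10% for 90, with a median of 8.04%, but at least 20% for 26 genes. Only 2 genes were listed at 0 in all 6 day 7 libraries, and 104 had a value above 0 in every one of them. The most was left of Ma01_g22010 (chromosome 1, 22594472 to 22598410), at 47.0%. It had 1.80, 1.48 and 1.47 FPKM in 1K, 2.07, 1.95 and 2.26 in 1A, 0.957, 0.924 and 0.830 in 7K, and 0.830, 0.735 and 0.903 in 7A. This gene only crossed the limit of 1, and the same holds for Ma04_g04800 with 41.9% left. Near the other end, Ma02_g09190 (chromosome 2, 19308078 to 19321323) had 13.8, 13.8 and 4.69 in 1K and 7.02, 7.28 and 22.8 in 1A. It had 0.0840, 0.152 and 0.0570 in 7K and 0.0823, 0.0920 and 0 in 7A, which left 0.674%.

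**Figure D2:**
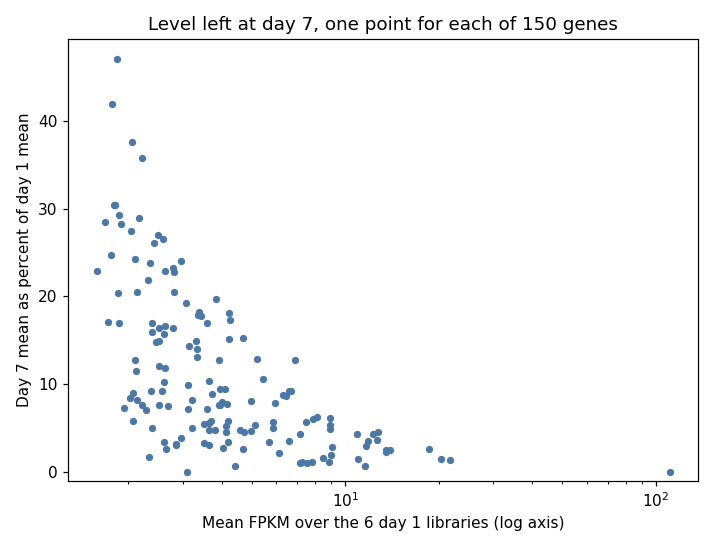
Mean FPKM over the 6 day 1 libraries (horizontal, log axis) against the day 7 mean as a percentage of it (vertical), with a point for each of the 150 genes. The median is 8.04%, and 26 genes lie at 20% or above.

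limma called all 150 genes lower at day 7 (adjusted p under 0.05) in control fruit, where 14.8% of all tested genes were called lower. It also called all 150 lower in coated fruit, where the share was 18.2%. Since the rule used these comparisons, nothing is read from the counts. The median log2 fold change on the scale log2(FPKM + 1) was -1.71 for control fruit and -1.80 for coated fruit, against 0.37 and 0.34 over all tested genes. Values this close to 0 FPKM are compressed on that scale, and with a pseudocount of 0.1 in place of 1 the medians were -3.12 and -3.44. Median-of-ratios scaling moved the median of all tested genes from 0.37 to -0.0013 for control and from 0.34 to 0.03 for coated fruit, and that of the 150 genes to -1.86 and -2.00.

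**Figure D3:**
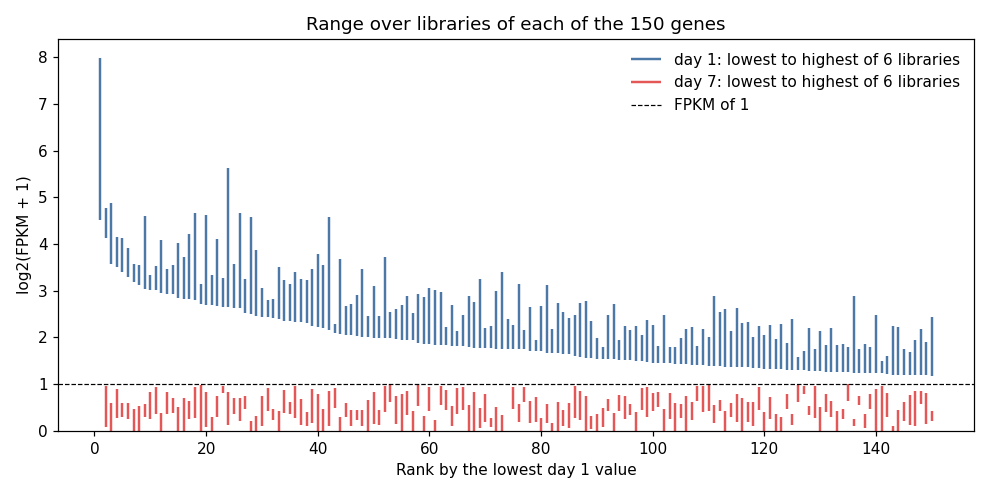
Lowest to highest value over the 6 day 1 libraries (blue) and over the 6 day 7 libraries (red) for each of the 150 genes, on the scale log2(FPKM + 1), ordered by the lowest day 1 value. The dashed line is the FPKM of 1 that parts the days by the rule, and the lowest day 1 value goes from 21.8 at the first gene to 1.27 at the last.

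The gene ranked first rests on few fragments. Ma08_g18790 lies on chromosome 8 (32403404 to 32403557). Its FPKM was 139, 170.5 and 53.6 in 1K, 21.8, 27.1 and 253 in 1A, and it was listed at 0 in all 6 day 7 libraries. The implied fragments were 25, 34.7 and 9.59 in 1K and 4, 5 and 42.4 in 1A, so its high FPKM rests on few fragments of a short locus, the shortest of the set. At day 7 a count of 0 allows up to 3 fragments, which for this gene stand for an FPKM of 12.2 in the library with the most implied fragments and 30.2 in 7A_c. An FPKM below 1 could not be measured for it, and its values of 21.8 and 27.1 in 1A lie below what the zero of 7A_c allows. It is the only one of the 150 genes for which 3 fragments in some day 7 library exceed its lowest day 1 value.

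The second gene, Ma03_g22220 (chromosome 3, 26983547 to 26986682), rested on many more fragments. It had 16.5, 20.6 and 22.8 FPKM in 1K and 26.4, 21.9 and 22.1 in 1A, from 225 to 406 fragments a library. At day 7 it had 0.248, 0.215 and 0.934 in 7K and 0.0642, 0.247 and 0.123 in 7A, from at most 14 fragments. The fall left 1.4% of the day 1 mean, and 7K_c stood above the other day 7 libraries.

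Ma04_g11590 (chromosome 4, 8193247 to 8193903) had 14.1, 10.8 and 25.0 FPKM in 1K and 28.6, 26.6 and 16.6 in 1A, and 0.482, 0.417 and 0.513 in 7K and 0.123, 0.238 and 0 in 7A. Ma04_g00710 (chromosome 4, 691863 to 697004) had 11.5, 16.4 and 11.2 in 1K and 10.4, 10.5 and 16.7 in 1A, and 0.365, 0.654 and 0.872 in 7K and 0.560, 0.215 and 0.789 in 7A. Of the former 1.46% was left at day 7 and of the latter 4.51%, and both kept the coated and the control fruit of day 1 within one overlapping range. Ma10_g24560 (chromosome 10, 33106825 to 33108033) had 12.3, 9.55 and 16.0 in 1K and 16.5, 15.0 and 11.7 in 1A, and 0.224, 0.259 and 0.301 in 7K and 0.522, 0.501 and 0.222 in 7A. Ma08_g01170 (chromosome 8, 1095344 to 1097369) had 13.8, 14.1 and 11.2 in 1K and 8.84, 9.24 and 12.7 in 1A, and 0.224, 0.324 and 0.403 in 7K and 0.436, 0.511 and 0.184 in 7A. In these last genes 7A_a and 7A_b were above every 7K library, while 7A_c was below all of them.

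Ma10_g07690 (chromosome 10, 22040139 to 22040948) came close to a complete loss. It had 8.17, 10.8 and 9.32 FPKM in 1K and 8.11, 8.83 and 8.04 in 1A, and at day 7 only 0.211 in 7K_b and 0.391 in 7K_c, with 0 in the other 4 libraries. Here 3 fragments stand for 0.220 to 0.543 FPKM at day 7, so that the depth was enough to place the gene below 1. Ma05_g20830 (chromosome 5, 32526961 to 32529238) had nearly the same level in all 3 coated libraries of day 1, at 7.85, 7.91 and 7.75, beside 10.7, 8.83 and 8.0 in 1K. At day 7 it had 0.136, 0.0791 and 0.443 in 7K and 0.0355, 0.117 and 0 in 7A. Of both genes less than 2% of the day 1 mean was left, at 1.13% and 1.59%.

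Ma10_g22820 (chromosome 10, 32023436 to 32029749) had 16.2, 19.6 and 7.15 FPKM in 1K and 8.67, 8.70 and 23.2 in 1A, and 0.349, 0.486 and 0.364 in 7K and 0.298, 0.386 and 0.229 in 7A. Its day 1 libraries fell into a high and a low set that cut across the coating. Ma07_g27270 (chromosome 7, 33707609 to 33721180) was the best measured gene, with 609 to 918 fragments at day 1. It had 9.14, 9.16 and 7.14 in 1K and 7.63, 7.20 and 8.31 in 1A, and 0.768, 0.482 and 0.635 in 7K and 0.554, 0.429 and 0.197 in 7A. Up to 113 fragments remained at day 7, so 6.31% of its level was left and was well above 0. Ma08_g11730 (chromosome 8, 8705896 to 8711437) had 7.07, 7.51 and 8.42 in 1K and 10.6, 9.70 and 10.4 in 1A, and 0.355, 0.772 and 0.921 in 7K and 0.507, 0.284 and 0.437 in 7A. The coated libraries of day 1 lay above all control libraries in this gene. The twelfth, Ma04_g09070 (chromosome 4, 6462314 to 6464184), had 10.8, 6.78 and 8.93 in 1K and 16.1, 10.5 and 12.7 in 1A, and 0.280, 0.303 and 0.0937 in 7K and 0.0901, 0 and 0.176 in 7A.

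**Figure D4:**
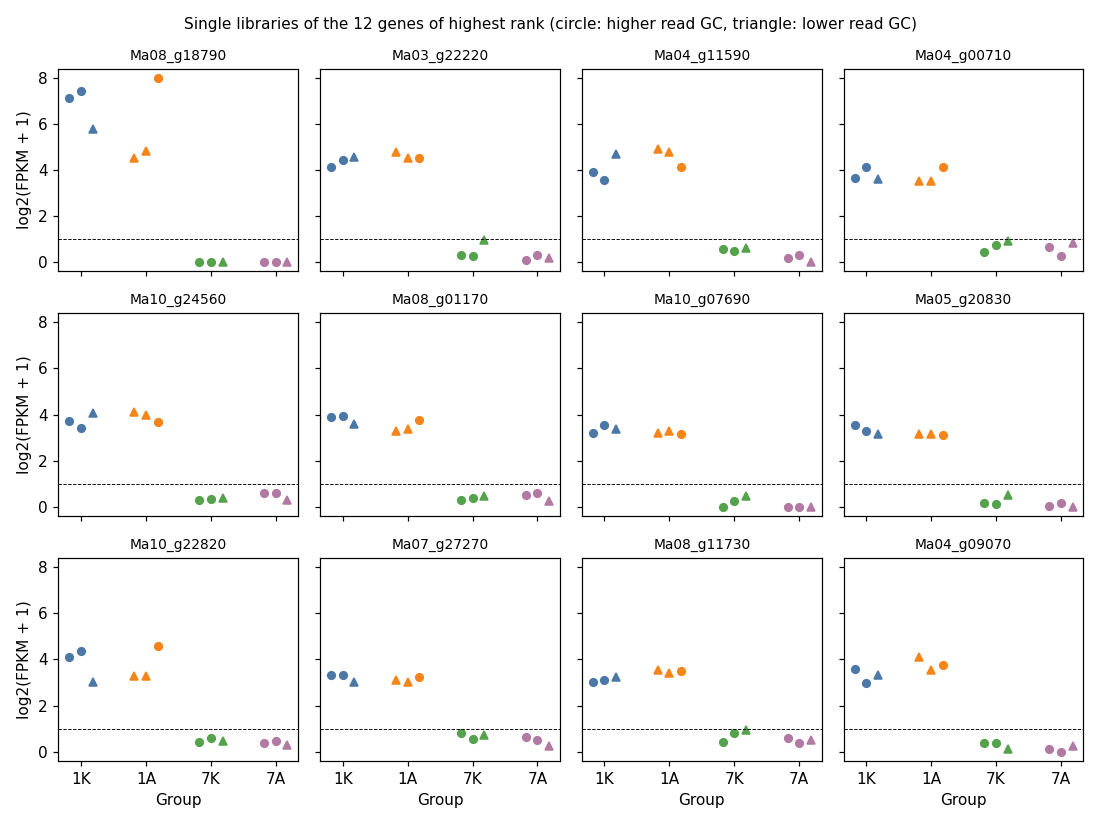
Single libraries of the 12 genes of highest rank, with the group on the horizontal axis and log2(FPKM + 1) on the vertical axis. Circles are libraries with a higher and triangles with a lower GC share of the reads, and the dashed line is an FPKM of 1. In Ma08_g18790 and Ma10_g22820 the circles lie above the triangles at day 1.

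A complete loss could be tied to depth for few other genes. Ma11_g19900 (chromosome 11, 24569400 to 24570072), ranked 74, was the other gene at 0 in all 6 day 7 libraries. It had 2.94, 2.38 and 2.37 FPKM in 1K and 2.79, 4.24 and 3.89 in 1A, from 18.9 to 37.6 fragments. At day 7, 3 fragments stand for 0.280 to 0.691 FPKM, so the zeros place it below 1 in each library. Ma08_g32900 (chromosome 8, 43447830 to 43450109) was above 0 at day 7 only in 7K_b, at 0.178, after 7.14, 4.67 and 2.58 in 1K and 3.19, 2.69 and 6.25 in 1A. Ma09_g14600 (chromosome 9, 9962098 to 9962914) was above 0 only in 7K_c, at 0.677, after 1.97, 3.59 and 5.82 in 1K and 5.66, 4.5 and 2.69 in 1A. Neither gene had a day 7 fragment in the coated fruit. In the rest of the set, the zeros were scattered, with 26 genes at 0 in 1 library, 9 in 2 libraries, 2 in 3 and 5 in 4.

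At the edge of the set the fall was small for some genes and large for others. The last members were Ma06_g37000, Ma06_g10270 and Ma04_g09870, whose lowest day 1 values were 1.29, 1.28 and 1.27 FPKM, and of which 27.0%, 20.5% and 9.21% was left at day 7. The genes that followed and were left out, Ma10_g25470, Ma08_g28300 and Ma05_g00620, had lowest day 1 values of 1.25, 1.23 and 1.23. Of these 11%, 5.07% and 37.9% was left, so the order by the lowest day 1 value does not order the genes by the depth of their fall. The highest day 7 value inside the limit was 0.994 in Ma03_g12100, and the nearest outside was 1.00 in Ma07_g00120. For the coating limit the ratio of 1A to 1K was 1.499 in Ma03_g07790, just inside, and 1.501 in Ma08_g15500, just outside.

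The day 1 libraries also differed in the GC share of their reads. The study's read statistics divide the 6 day 1 libraries by the GC share of their reads into a lower set (1K_c, 1A_a and 1A_b) and a higher set (1K_a, 1K_b and 1A_c), which cuts across the coating. At day 7 the lower set was 7K_c and 7A_c, and the higher set 7K_a, 7K_b, 7A_a and 7A_b. By the study's mapping statistics, every library of the lower sets had a smaller share of mapped reads than any library of the higher sets. Fewer transcripts were also detected in each of them. The sets are named here by GC share, but GC share, mapped share and transcripts detected cannot be told apart in them. The difference between the day 1 sets, adjusted for coating, was tested by limma over the 6 day 1 libraries. It was called (adjusted p under 0.05) in 73 of the 150 genes (48.7%), 15 higher and 58 lower in the lower set, while over all tested genes 59.5% were called, 19% higher and 40.5% lower. The rule used the same day 1 values, and asking for at least 1 FPKM in each library and for like means of 1A and 1K can favour genes with little spread, so nothing is read from the lower share. The direction depended on the scaling, because with median-of-ratios scaling 37 were higher and 37 lower, against 30.4% and 27% of all tested genes. Relative to the median of all tested genes, which was -0.20 on the log2 scale, the median of the 150 genes was -0.16. Without 1A_c the count was 38 in place of 73, 7 higher and 31 lower, where 14% and 25.4% of all tested genes were called. In 56 genes all 3 libraries of the higher set lay above all 3 of the lower set, and in 17 genes below, where the shares over all tested genes were 38.1% and 15.7%.

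The extremes show the size of this difference. Ma06_g31890 (chromosome 6, 32901866 to 32906161) had 18.6, 21.5 and 5.24 FPKM in 1K and 9.74, 8.08 and 48.5 in 1A. All libraries of the higher set were above the lower set, by a log2 difference of -2.04 ± 0.16 (SE) for lower minus higher (limma adjusted p = 0.00018). Its coefficient of variation over the day 1 libraries, 85.7%, was the highest of the 150 genes. Ma03_g13430 (chromosome 3, 10547059 to 10561232) had 14.5, 16.3 and 3.47 in 1K and 4.25, 4.07 and 22.8 in 1A, a log2 difference of -2.04 ± 0.11 (SE, limma adjusted p = 7.76e-05). In Ma08_g18790 the log2 difference was -2.42 ± 0.39 (SE, limma adjusted p = 0.0027), with the few fragments given above. These genes had the highest values in 1A_c, which was also the highest of the day 1 libraries for 62 of the 150 genes. The share over all tested genes is not given for this count, so nothing is read from it.

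Other genes varied the opposite way. Ma03_g07790 (chromosome 3, 5516003 to 5516865) had 9.14, 5.15 and 18.3 FPKM in 1K and 24.4, 15.0 and 9.37 in 1A, higher in the lower set by a log2 difference of 1.12 ± 0.26 (SE, limma adjusted p = 0.012). Ma02_g11410 (chromosome 2, 20573772 to 20576364) had 2.51, 2.83 and 5.76 in 1K and 4.69, 5.30 and 2.44 in 1A, a log2 difference of 0.84 ± 0.11 (SE, limma adjusted p = 0.0011). The third was Ma04_g11590, at 0.83 ± 0.12 (SE, limma adjusted p = 0.0019). By contrast, Ma06_g23510 (chromosome 6, 21518762 to 21520210) was the steadiest gene at day 1. It had 3.49, 3.85 and 3.29 in 1K and 3.25, 3.88 and 3.72 in 1A, a coefficient of variation of 7.75%, where the median was 28.6% over the 150 genes and 34.0% over all tested genes. It fell to 0.544, 0.735 and 0.588 in 7K and 0.471, 0.407 and 0.896 in 7A, which left 16.9%.

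Coated and control fruit had similar means at day 1 by the rule, with a median ratio of 1A to 1K of 1.06 and a higher mean in 1A for 85 genes. limma called 0 of the 150 genes at an adjusted p under 0.05, where 5.63% of all tested genes were called. At an unadjusted p under 0.05 it called 11, where the share over all tested genes was 16.68%. With voom, which used fragments in place of FPKM, 0 were called at an adjusted p under 0.05, against 3.68% higher and 2.19% lower over all tested genes. The rule limits these counts, so nothing is read from them. The limit on the means did not hold within the sets of like GC share, where 1K and 1A are unevenly represented. Among the libraries of the higher set, 1A_c was over 1.5-fold above the mean of 1K_a and 1K_b in 25 genes and over 1.5-fold below it in 4. Among those of the lower set, the mean of 1A_a and 1A_b was over 1.5-fold above 1K_c in 13 genes and below it in 4. In 7 genes the coated fruit was over 1.5-fold higher in both sets, and in 1 gene lower in both, and these were chosen after their values were seen. Each ratio has only 1A_c or only 1K_c on 1 side. The shares over all tested genes are not given for these counts, so no lean of the set is read from them.

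**Figure D5:**
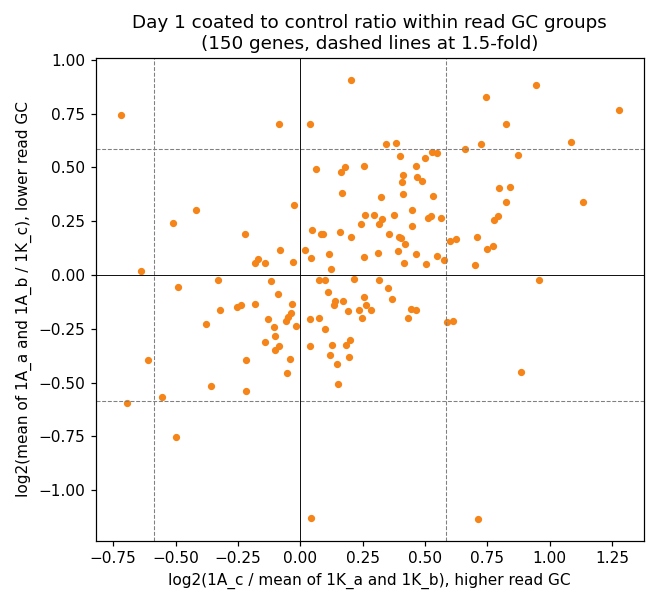
Log2 ratio of coated to control fruit at day 1 within the libraries of higher GC share (horizontal) and of lower GC share (vertical), with a point for each of the 150 genes and dashed lines at 1.5-fold. The coated fruit is higher in both for 73 genes and lower in both for 29, and 7 genes lie past both upper lines. Shares over all tested genes are not given for these counts, so nothing is read from them.

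Ma06_g31890 was 2.42-fold higher in coated fruit in the higher set and 1.70-fold in the lower, and Ma04_g09970 (chromosome 4, 7129669 to 7137398) 1.93-fold and 1.84-fold. Ma04_g09970 had 5.28, 7.35 and 2.95 FPKM in 1K and 5.76, 5.13 and 12.2 in 1A, so the groups overlapped although each set gave the same direction. The others were Ma02_g09190, Ma02_g10790, Ma11_g14360, Ma05_g17000 and Ma04_g09870. The gene lower in both sets, Ma06_g38000 (chromosome 6, 36903757 to 36907539), had 9.50, 10.2 and 12.2 in 1K and 7.63, 8.57 and 6.09 in 1A, with every coated library below every control library.

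With the GC set as a term in the limma fit of all 12 libraries, 3 of the 150 genes were called for coating at day 1, where 25.8% of all tested genes were. The rule limits this count as well, so nothing is read from it, and the values are a description. Ma06_g38000 was lower in coated fruit, by a log2 fold change of -0.54 ± 0.16 (SE). Ma05_g19430 was higher by 0.41 ± 0.13 (SE), with 3.59, 2.94 and 3.09 FPKM in 1K and 4.87, 4.20 and 4.30 in 1A. Ma07_g26180 was higher by 0.41 ± 0.14 (SE), with 3.12, 2.83 and 2.99 in 1K and 4.77, 3.96 and 4.20 in 1A. In each of these genes the libraries of 1A and 1K were fully apart.

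Between coated and control fruit of day 7, limma called 0 of the 150 genes at an adjusted p under 0.05, where 0.142% of all tested genes were called. At an unadjusted p under 0.05 it called 3, where the share over all tested genes was 7.64%. With voom 0 were called at an adjusted p under 0.05, against 0.0608% higher and 0.0152% lower over all tested genes. With the GC set as a term in the limma fit, 0 of the 150 genes were called at an adjusted p under 0.05. In that fit 1.87% of all tested genes were called higher and 7.2% lower in coated fruit of day 7. The mean of 7A was below that of 7K in 111 genes (74%), as it was in 69.9% of all tested genes. Without replicate c of both groups, which leaves out 7A_c with its few implied fragments, it was below in 94 genes (62.7%), against 62.9% of all tested genes. The interaction of coating and day called 0 of the 150 genes at an adjusted p under 0.05, where 2.38% of all tested genes were called. At an unadjusted p under 0.05 it called 13, where the share over all tested genes was 13.85%. With voom it called 0 at an adjusted p under 0.05, against 0.866% higher and 0.704% lower over all tested genes. With the GC set as a term, where 20% of all tested genes were called, it called Ma08_g31490 (chromosome 8, 42365378 to 42367481), which had 1.42, 1.61 and 1.63 FPKM in 1K, 2.37, 2.04 and 2.12 in 1A, 0.494, 0.952 and 0.737 in 7K and 0.213, 0.477 and 0.410 in 7A. Its fall was larger in the coated fruit by a log2 difference of -0.63 ± 0.20 (SE). The rule bounds both the day 1 ratio and the day 7 values that enter the interaction, so these counts too are a description. All 3 coated libraries were above the controls at day 1 and below them at day 7.

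The genes were spread over the genome. Of the 150, 149 lay on the 11 numbered chromosomes and 1, Ma00_g04370, on unplaced sequence. The share of the tested genes that belonged to the set went from 0.446% on chromosome 2 to 1.01% on chromosome 10, with 18 genes each on chromosomes 6 and 10. None (0) of the 150 genes lay next to another of them, and the only pair within 5 genes was Ma09_g22730 and Ma09_g22770 on chromosome 9. The locus length, introns included, had a median of 3080 bp and a range from 153 to 19584 bp, against a median of 4285 bp over all tested genes. Loci under 1000 bp made up 11.3% of the set and 9.73% of the tested genes.

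Most of the genes beside them were not called lower. Of the 298 genes next to one of the 150, 172 were tested. In the control fruit 31 of these (18%) were lower at day 7 and 49 (28.5%) higher, against 14.8% and 31.1% of all tested genes. In the coated fruit 41 (23.8%) were lower and 47 (27.3%) higher, against 18.2% and 29.2%. Their median log2 fold changes were 0.29 for control and 0.16 for coated fruit, beside the medians of 0.37 and 0.34 over all tested genes. With median-of-ratios scaling, 46 of 174 were lower and 34 higher in control fruit (26.4% and 19.5%, against 22.6% and 20.4% of all tested genes), and 52 were lower and 35 higher in coated fruit (29.9% and 20.1%, against 24.9% and 22.3%). The share called lower was a little above that of all tested genes in each case, and this difference was not tested.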

How the data were processed

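Read quality was checked by the authors with FastQC, reads were aligned with TopHat to the DH Pahang version 2 assembly, and Cufflinks gave an FPKM per gene with confidence bounds. These deposited FPKM values, 1 table per library, were used without further scaling. How multi-mapped reads were handled is not given in the sources used here, so near-identical genes can share fragments. Fragments per gene were derived from the bounds: the upper bound exceeds the FPKM by 2 FPKM over the root of the fragment number. They cover counting error only.

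The 150 genes and the lists were chosen with earlier results of these data known. Values were tested as log2(FPKM + 1) with limma 3.58.1 in R 4.3.3, with its trend option. p-values were adjusted after Benjamini and Hochberg over the 19745 genes that reached an FPKM of 1 in 3 or more libraries. A row without an ID and an ID that occurs in more than 1 row were left out. A single fit of 4 group means held all 12 libraries, and a fit with coating as a covariate the 6 day 1 libraries for the GC share of the reads. limma's voom was run on the derived fragments with median-of-ratios library sizes. The fit was tested on simulated data. Summaries were made in Python 3.11.15 with pandas 2.3.3 and numpy 2.4.6, and figures with matplotlib 3.10.9.

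Genes were named as the 12 of highest rank, the 3 last and the 3 next, those at 0 in every day 7 library within the first 75 ranks, the 3 largest GC differences each way, and the lowest and highest spread at day 1. Other genes are named after their values were seen. Counts by product name were planned and not run, since no names could be joined. Replicate numbers are in the labels. Deviations from the group means of same-numbered libraries had correlations of 0.496 to 0.837 between 1K and 7K and of 0.466 to 0.855 between 7K and 7A. They were -0.866 to -0.607 between 1K and 1A and -0.78 to -0.58 between 1A and 7A. Libraries of unlike number also had either sign, such as 0.775 for 1K_c with 1A_a and -0.746 for 1K_c with 7A_a. In every pair across groups the sign was positive within a GC set and negative between the sets. Since the sign followed the GC sets, these correlations cannot decide whether the numbers pair the groups. None was taken with the GC split removed. The main fit used no pairing.

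Alternatives were another pseudocount, other filters, median-of-ratios scaling, limma without a trend, a replicate block, the GC set as a term, voom and each library left out.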

Additional observations from a re-analysis of the deposited data

How the results depend on the processing

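How many genes met the rule depended on its limits. There were 185 as given, 66 with an FPKM under 0.5 at day 7, 86 with at least 2 at day 1, 117 with a coating limit of 1.25 and 324 without that limit. Median-of-ratios scaling gave 263, and 116 of the 150 genes were among its first 150. Leaving out each library gave 159 to 210, and 107 to 150 of the genes were shared.

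All 150 genes were called lower at day 7 in the coated fruit under every alternative run, and 149 to 150 in the control fruit. For coating at day 1 the GC set as a term gave 3 genes, and leaving out each library gave 0 to 1, the 1 being Ma08_g18790 without 1A_c. For the interaction the GC set as a term gave 1, and the other alternatives 0. With the replicate block the counts were 150, 150, 0, 0 and 0 for the control, the coated fruit, coating at day 1, coating at day 7 and the interaction, so it changed no call. For the GC sets, leaving out each library gave 38 to 68 genes, and other alternatives gave 65 to 85. The lowest was without 1A_c, with the shares over all tested genes given above. The 68 without 1K_a stood beside 18.4% higher and 38.7% lower over all tested genes. With the GC set fitted over all 12 libraries, the 65 stood beside 22.1% and 49.8%. The voom split of the 85 was 38 higher and 47 lower, where 30.9% and 30% of all tested genes were called. As above, nothing is read from these counts. Genes beside the 150 were called lower in 29 to 46 cases in the control and in 40 to 58 in the coated fruit. The 29 and 40 with the replicate block stood beside 14.1% and 17.4% called lower over all tested genes. The 46 and 58 with the GC set as a term stood beside 23.3% and 27.8%. With each library left out there were 25 to 32 in the control and 36 to 43 in the coated fruit. The shares were 12.6% at the 25 and 15.5% at the 32, and 15.4% at the 36 and 18.3% at the 43. The number tested also changed with the filter, so nothing is read from these ranges. Members of the set near another came to 2 within 5 genes. Genes at 0 in every day 7 library came to 2 to 3 with each day 7 library left out.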

Other observations

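Besides the 185 genes, 139 genes met the limits of both days but had means of 1A and 1K more than 1.5-fold apart. Of these, 111 (79.9%) were higher in the coated fruit at day 1 and 28 lower, whereas among all tested genes past 1.5-fold 44.4% were higher in the coated fruit. All 111 were higher in coated fruit in both the higher and the lower GC set, and 89 of them by over 1.5-fold in both. These genes were selected by this very ratio, so the counts are a description with no test. Ma07_g19120 (chromosome 7, 27174914 to 27178541) had 29.6, 24.9 and 20.5 FPKM in 1K and 42.6, 38.5 and 52.3 in 1A, before 0.468, 0.750 and 0.934 in 7K and 0.385, 0.246 and 0.302 in 7A. Ma09_g08290 (chromosome 9, 5487972 to 5491408) had 17.5, 23.3 and 10.5 in 1K and 19.2, 20.9 and 50.6 in 1A, and at day 7 no value above 0.309. The opposite was seen in Ma08_g31780 (chromosome 8, 42573960 to 42578293), with 27.3, 25.9 and 14.9 in 1K and 7.27, 9.61 and 15.7 in 1A, before 0.213 to 0.416 in 7K and 0.215 to 0.472 in 7A.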
